A study of Drosophila melanogaster with 8 samples.

Results

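The comparison described here set GFP-tagged against untagged wing imaginal discs of Drosophila melanogaster larvae, all taken 2 days after damage. It uses 4 of the 8 libraries of the series, which are 2 from discs in which Zelda carried GFP at its own locus and 2 from wild-type (w1118) discs without any GFP. All 4 were made by CUT&RUN with the same rabbit anti-GFP antibody, so the untagged discs measure what the antibody and the nuclease release where no GFP is present. The wing imaginal disc is the larval epithelium that forms the adult wing and thorax, and it regrows after injury. The remaining libraries, 2 of each genotype from discs that developed without damage, are used in the last comparison only. How the discs were damaged, their age and how many larvae went into a library are not given in the sources used here. The study asked where Zelda sits on chromatin during regeneration.

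Zelda is a zinc finger pioneer factor, a protein that binds its sites in closed chromatin and opens them for other factors. It is best known for switching on the zygotic genome of the early fly embryo, and it is also made in later tissues. CUT&RUN uses an antibody to tether a nuclease to chromatin, and the short fragments that are cut free are sequenced. Some fragments are released without the antibody's target, and untagged discs measure those.

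Peaks on the arms 2L, 2R, 3L, 3R, 4 and X numbered 3624 and 3908 in the tagged libraries and 2282 and 3706 in the untagged ones. The tagged mean of 3766 ± 201 (SD, n = 2) was 772 above the untagged mean of 2994 ± 1010. Untagged replicate 2 lay between the tagged libraries, so the genotypes overlapped, and the difference was smaller than the SD of the untagged group (p = 0.667 by an exact two-sided permutation test). Without untagged replicate 1 the difference was 60 peaks, and without untagged replicate 2 it was 1484. Peaks whose fold enrichment, the authors' ratio of pileup to local expected coverage, reached 3 numbered 540 and 620 in the tagged lists and 143 and 157 in the untagged lists. These counts did not overlap between genotypes (exact two-sided permutation p = 0.333, the smallest that 2 against 2 libraries allow), although nothing places the folds of separate lists on 1 scale. Read depth is unknown, and the lowest expected coverage at a peak was used in its place. It was 38 fragments per base in both tagged libraries and 52.3 and 46.1 in the untagged ones. The larger number of strong peaks was found in the libraries of lower background coverage, whose part in the difference was not tested. Nothing in the labels says that replicates came from separate groups of larvae, so p-values measure only the spread between these libraries.

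The untagged libraries differed from each other in kind as well as in number. In untagged replicate 2, 45.6% of the peaks lay within 500 bp of an end of a protein-coding gene, against 10.7% in untagged replicate 1. The tagged libraries lay between them, at 32.0% and 34.4%. The genotypes therefore did not separate by this share (difference of means 5.01 percentage points, exact two-sided permutation p = 1.0). The difference was -12.46 points without untagged replicate 1 and 22.48 points without untagged replicate 2. The tagged lists shared a Jaccard index of 0.530, the regions called in both over those called in either. The untagged lists shared 0.330, and the 4 pairs of different genotype lay between 0.238 and 0.269. Which of the untagged libraries better represents discs without GFP cannot be told from the peak lists, and both classes that rest on them depend on it. For that reason the main counts are also given below with each control alone.

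Merging peaks of the 4 lists that shared at least 1 bp gave 7085 regions. Of these, 1244 were called in both tagged and no untagged library, and are called tag-dependent here (17.6% of all regions). In the reverse pattern, 297 were called in both untagged and no tagged library (4.19%). All 4 libraries called 888 (12.5%). The rest were called in 1 library, in 3 or in 1 of each genotype, and 1595 of them in untagged replicate 2 alone. With untagged replicate 2 as the only control, 1347 regions were tag-dependent, and with untagged replicate 1 as the only control, 1488. The control-only count turned on both untagged lists being required, and was 1928 with untagged replicate 2 alone and 859 with untagged replicate 1 alone. Among lists cut to equal length, the tag-dependent count was 832 and the control-only count 378. With only peaks of fold 3 or more kept in every list, the counts were 247 and 15. Untagged peaks of lower fold no longer count in that setting, and 213 of the 1244 tag-dependent regions overlapped one of the 247. As above, nothing places the folds of separate lists on 1 scale.

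**Figure D1:**
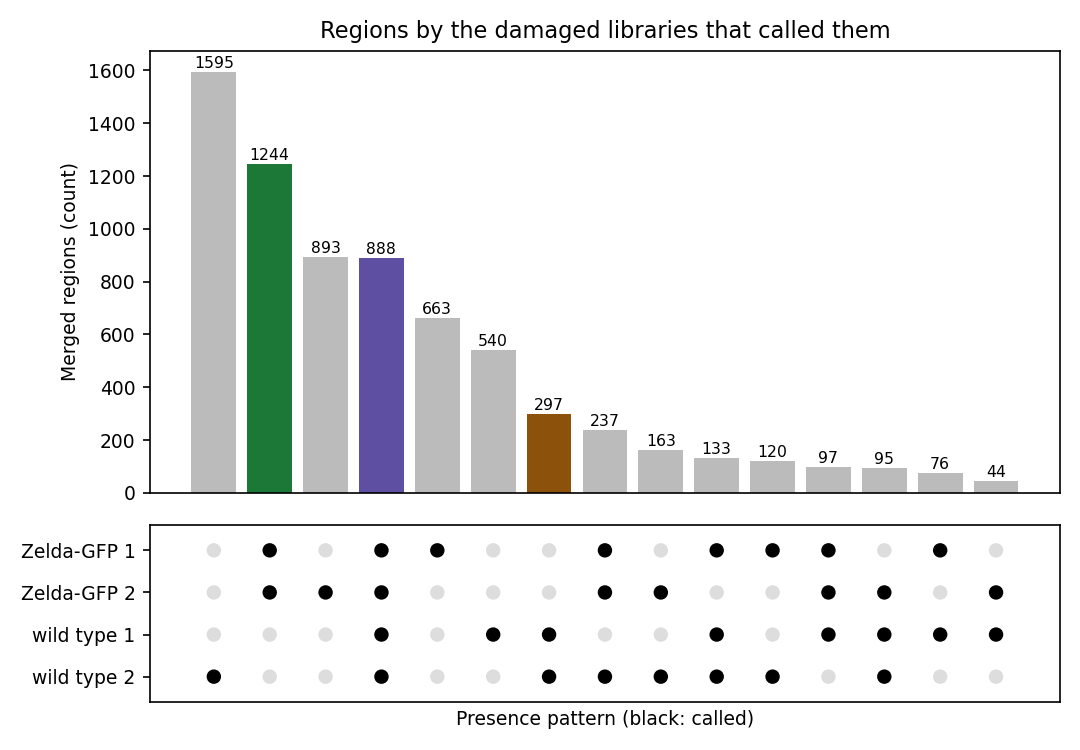
Number of merged regions (bars, count) for each pattern of calls in the 4 damaged libraries; black dots mark the libraries that called a region. The tag-dependent pattern holds 1244 regions, the control-only pattern 297 and the pattern of all 4 libraries 888, while the tallest bar, 1595, belongs to wild-type replicate 2 alone.

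Of the tag-dependent regions, 897 of 1244 (72.1%) overlapped a protein-coding gene, 56 more overlapped another kind of gene only, and 291 (23.4%) overlapped none. Over all regions 67.1% overlapped a protein-coding gene, and 88.0% of those in untagged replicate 2 alone did. Among control-only regions 45.8% overlapped a protein-coding gene, and among regions of all 4 libraries 40.9%. The tenth of each arm next to the centromere held 4.58% of the tag-dependent regions, 31.3% of the control-only regions and 45.4% of those in all 4 libraries, against 17.1% of all regions. Regions called in all 4 libraries were the widest, with a median of 1247 bp, against 765 bp for tag-dependent and 608 bp for control-only regions. Widths follow partly from merging, since a region called in more lists is the union of more peaks.

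Distance from genes also differed. A region lay within 500 bp of an end of a protein-coding gene in 537 tag-dependent cases (43.2%), 49 control-only cases (16.5%) and 101 cases in all 4 libraries (11.4%). Over all 7085 regions the share was 41.9%, so that of the tag-dependent class was near the background and those of the other classes were below it. Ends of at least 2 genes were that near in 21.2%, 10.8% and 8.11%. The median distance from the summit to the nearest gene end was 1903 bp for tag-dependent regions, 9663 bp for control-only regions and 19200 bp for regions of all 4 libraries. Closeness to genes was not particular to the tagged discs, because 72.9% of the 1595 regions called in untagged replicate 2 alone also lay within 500 bp of a gene end, against 9.81% of the 540 in untagged replicate 1 alone. Of the 237 regions called in both tagged libraries and untagged replicate 2, 65.0% did, and of the 97 shared with untagged replicate 1, 9.28%. The part of this difference between the control libraries in the shares above was not tested.

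**Figure D2:**
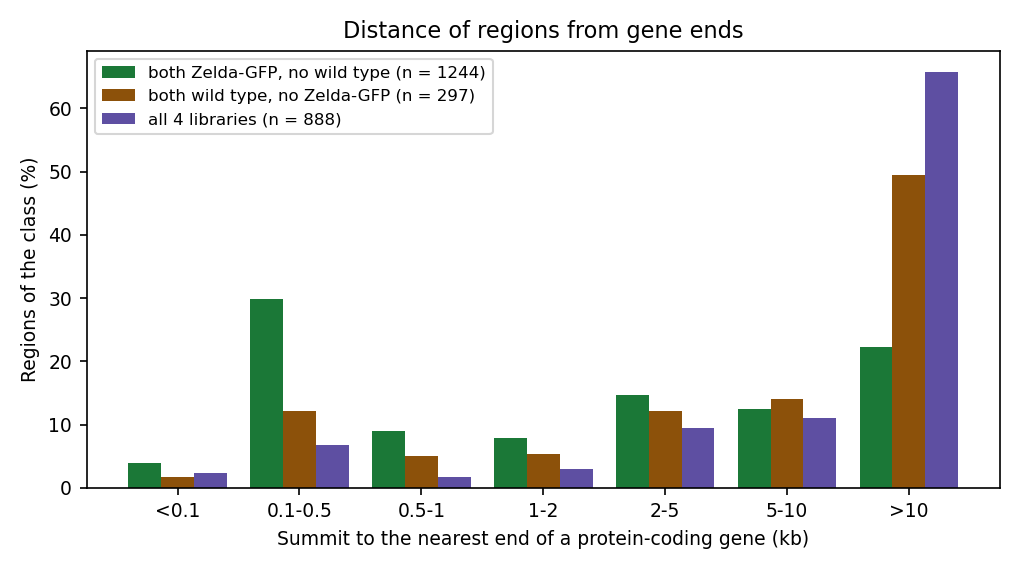
Share of the regions of each class (%) by the distance in kb from the region's summit to the nearest end of a protein-coding gene. Tag-dependent regions have 29.8% between 0.1 and 0.5 kb and 22.3% beyond 10 kb, whereas 65.8% of the regions in all 4 libraries and 49.5% of the control-only regions lie beyond 10 kb.

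Ranks within the lists are a description only, since they come from the same lists that define the classes. The highest peaks of tag-dependent regions had a median within-list percentile of fold of 66.3 in tagged replicate 1 and 70.0 in tagged replicate 2. For the regions of all 4 libraries the medians were 56.2 and 54.8, and over all regions 51.8 and 52.3. For regions called in tagged replicate 1 or 2 alone they were 30.6 and 36.7. In the untagged lists the order was that control-only regions had medians of 47.3 and 50.6, and regions of all 4 libraries 73.2 and 77.8. Of the regions among the highest 10% of an untagged list, 200 of 225 and 282 of 361 were called in all 4 libraries. In the tagged lists 199 of 362 and 232 of 388 were tag-dependent, and 104 and 107 were called in all 4 libraries. These counts follow partly from class size. By rule each tagged list holds all 1244 tag-dependent regions and the 888 of all 4 libraries. Each untagged list holds those 888 and the 297 control-only regions. An untagged peak lay within 1000 bp of 152 tag-dependent regions (12.2%), and within 200 bp of 19, the closest at 8 bp. The median distance to the nearest untagged peak was 14217 bp.

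Ranked by the percentile of their fold within each tagged list, averaged over both, the first 20 tag-dependent regions had folds between 4.79 and 9.17. Of these, 15 overlapped a protein-coding gene and 9 lay near a gene end. Positions are in the build dm6. The first, at X 17829643 to 17830846 with folds of 7.52 and 9.17, overlapped the noncoding gene CR44691 and reached 19 bp into CG6398, whose span held a peak of tagged replicate 2 only. The region at 3R 29255450 to 29256916, with folds of 7.52 and 7.54, overlapped 351 bp at an end of stg and 432 bp of CG45544. The stg gene encodes the Cdc25 phosphatase that drives cells into mitosis. A region at 3L 18185718 to 18186907 lay 77 bp from hid, a trigger of apoptosis, with folds of 5.2 and 5.9. Another at 2L 429709 to 430983 lay 244 bp from ex, an upstream component of the Hippo growth control pathway, with folds of 5.32 and 5.57. None of these 3 held a peak in an undamaged wild-type library, and that at stg was also called in undamaged Zelda-GFP replicate 1.

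Of the other regions, 5 lay in or near genes of receptors or their pathways. The region at 2R 21523315 to 21524547 in Egfr, the epidermal growth factor receptor, had folds of 5.23 and 6.58. In shn, a zinc finger partner of the Dpp signal transducers, the region at 2R 11202513 to 11203898 had folds of 5.21 and 5.69. The region at 3L 8824786 to 8825942 lay 1563 bp from dally, a glypican that shapes the Dpp gradient, with folds of 4.79 and 6.45, and an untagged peak began 483 bp away. The region in Snoo, a Ski family regulator of TGF-beta signalling, at 2L 7909307 to 7910259 had 5.41 and 6.94. N, the Notch receptor gene, held one as well, at X 3162169 to 3162990, with folds of 6.66 and 5.97. None of these 5 was called in an undamaged library.

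The region at 2L 5292368 to 5293454 lay in vri, a bZIP transcription factor of the circadian clock, with folds of 6.48 and 6.21. In sbb, which encodes a corepressor, the region at 2R 18335095 to 18335548 had folds of 5.72 and 6.19. For mew, an integrin alpha subunit gene, folds were 5.59 and 7.07 in the region at X 13233616 to 13234463. The Polycomb gene ph-p held a region at X 2136476 to 2138077 with folds of 5.31 and 5.96, and its near-identical neighbour ph-d makes the assignment of reads there uncertain. The other regions overlapped or lay nearest to hng3, mbl, CG13921, CG6959, Zasp52 with tun, CG5953 and shg, the E-cadherin gene, 997 bp away. Of the 20, 2 were called in Zelda-GFP undamaged replicate 1 and none in another undamaged library.

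**Figure D3:**
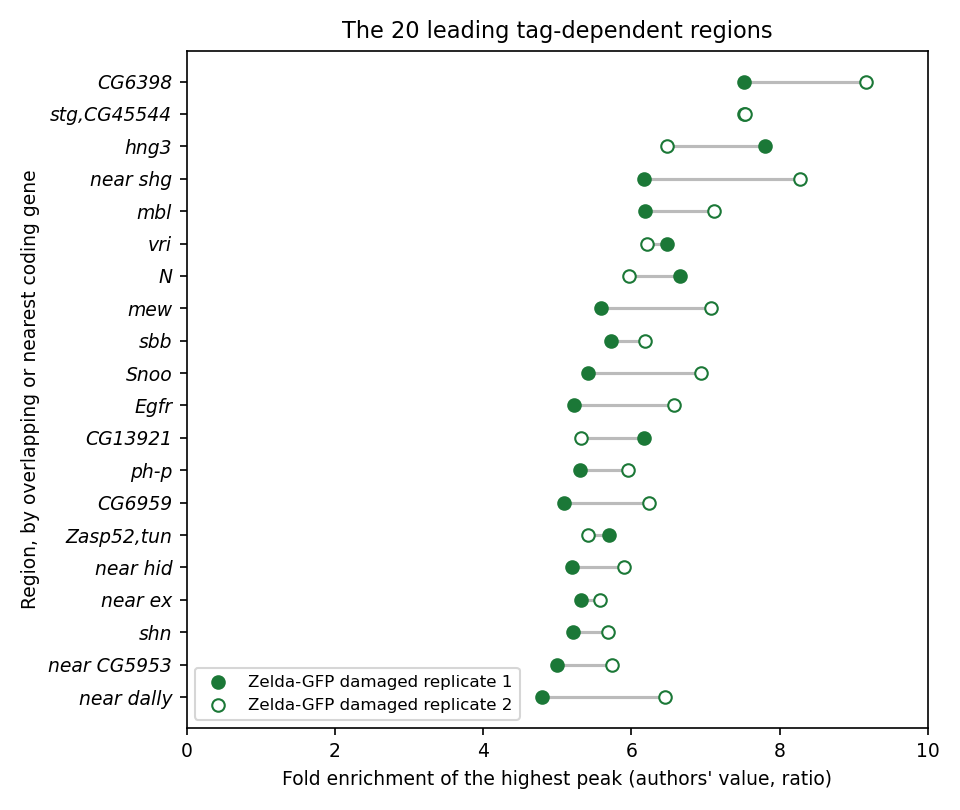
Fold enrichment (authors' ratio, linear axis) of the highest peak in each Zelda-GFP damaged library for the first 20 tag-dependent regions by mean percentile within the tagged lists, labelled by overlapping or nearest protein-coding gene. Folds run from 4.79 near dally to 9.17 at the end of CG6398, and filled and open circles (replicates 1 and 2) lie close together for stg at 7.52 and 7.54.

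Counted by gene, 822 of the 13922 protein-coding genes on the arms had a tag-dependent region within their span (5.9%), 134 a control-only region (0.963%) and 290 a region of all 4 libraries (2.08%). Over all 17684 genes, noncoding ones included, the shares were 5.45%, 0.82% and 2.28%. The genes with a tag-dependent region were long, with a median span of 10737 bp against 2163 bp for all protein-coding genes, and a longer span can hold more regions. Of the 822, 635 held no peak of either untagged library. Both a tag-dependent and a control-only region were found in 25 genes, 3.04% of the former genes and 18.7% of the latter, against 0.963% and 5.9% of all protein-coding genes. Most genes with a tag-dependent region had 1, and 133 had more.

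The largest number was in sbb, whose 79.1 kb held 9 tag-dependent regions. The tagged libraries had 9 and 11 peaks there and the untagged libraries 0 and 0. Next came jing, which encodes a zinc finger transcription factor, with 7 regions in 119.8 kb, where the tagged libraries had 9 and 7 peaks and the untagged ones 2 and 2. The homeodomain gene hth, which patterns the wing hinge, had 6 regions, from 8 and 8 tagged peaks against 0 and 1 untagged. Egfr, psq, Tet, fz2, pyd, SKIP and kirre had 5 each. In the damaged libraries, psq and fz2 held 5 and 5 tagged peaks and no untagged one. In kirre, by contrast, each untagged library had 5 peaks and each tagged library 10. Undamaged wild-type replicate 2 did call the psq regions at 2R 10581116 to 10583676, 10568704 to 10569454 and 10596453 to 10596923. The 6 regions in Myo81F are no comparable case, since its span of 1966 kb next to the centromere of 3R also held 6 control-only regions and 29 of all 4 libraries.

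Genes of wing patterning and signalling were next described by the 20 lists of genes drawn up by hand for pathways and cell types, beside all protein-coding genes. Each gene counted once, the lists held 415 genes, of which 112 (27%) had a tag-dependent region, 3 (0.723%) a control-only region and 9 (2.17%) a region of all 4 libraries. The background shares over all protein-coding genes are 5.9%, 0.963% and 2.08%, so the share of the lists was above the background in the tag-dependent class and near it in the other classes. The listed genes are also longer, with a median span of 7999 bp, and were chosen with earlier results known. By single library, 35.9% and 40.2% of the listed genes had a peak in the tagged discs and 6.99% and 19.5% in the untagged discs. All protein-coding genes had 11.8% and 13.3% against 4.23% and 15.8%. In both untagged libraries too, the share of listed genes was above that of all protein-coding genes. Of the 112 genes, 81 held no untagged peak.

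**Figure D4:**
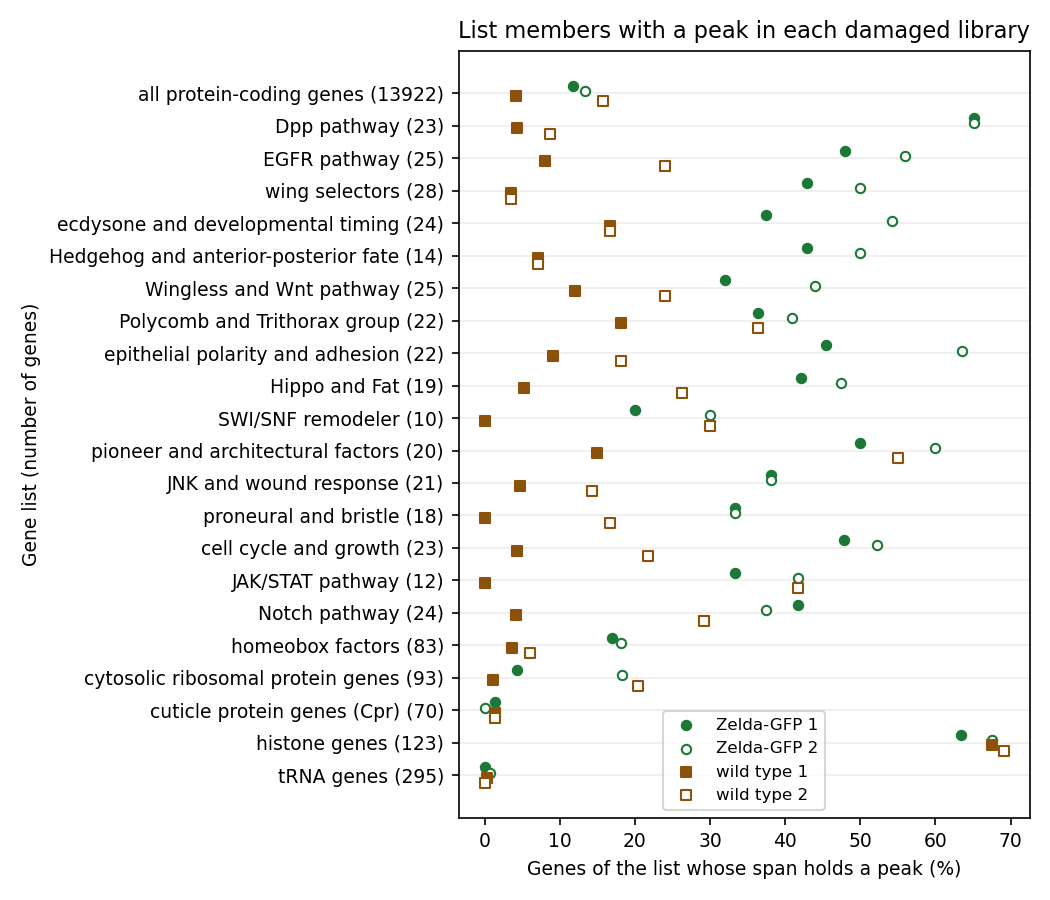
Percentage of the genes of each list whose span holds a peak, in each of the 4 damaged libraries (circles Zelda-GFP, squares wild type; filled replicate 1, open replicate 2; points of a list are offset vertically). In the Dpp list both tagged libraries are at 65.2% and the untagged ones at 4.35% and 8.70%, while histone genes lie between 63.4% and 69.1% in all 4 and tRNA genes at or below 0.678%.

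The Dpp pathway, through which a BMP ligand patterns the disc from its centre outwards, had the highest share among the pathway lists. It was 11 of 23 genes (47.8%, against 5.9% of all protein-coding genes). They held 18 regions (3.65 per 100 kb of gene span, against 0.933 for all protein-coding genes). Each tagged library had a peak in 15 of the 23 genes, and the untagged libraries in 4.35% and 8.70% of them. The ligand gene dpp held a region at 2L 2450889 to 2451622 with folds of 3.76 and 2.60. Its type I receptor tkv held 3 regions, the highest at 2L 5252725 to 5254784 with folds of 4.98 and 5.07. The transducer partner shn held 4. Among inhibitors and targets, Dad, the inhibitory Smad, held 3 regions with folds up to 3.19, and salr and bi, both targets of the pathway, held 1 each. Genes for extracellular modulators also carried regions, namely dlp with folds of 3.86 and 4.13, and dally, sog, tld and magu.

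The EGFR pathway list had 10 of 25 genes (40%, against 5.9% of all protein-coding genes) and 19 regions (3.98 per 100 kb). The untagged libraries had a peak in 8% and 24% of the list, against 4.23% and 15.8% of all protein-coding genes. The ligand gene spi held a region at 2L 19572790 to 19573118 with folds of 3.48 and 3.16, and the ligand gene Krn held 1 at its end. Beside the leading region described above, Egfr held 4 weaker ones with folds of 2.13 to 3.18. The cytoplasmic kinase gene Raf held 3, the adaptor gene drk 1 and S (Star), whose product helps to export the ligand, 1. Of the nuclear effectors, cic, a repressor relieved by the pathway, had the strongest region, at 3R 20257274 to 20259018 with folds of 4.20 and 4.95, and the repressor gene aop and the activator gene pnt held 2 and 1. Undamaged wild-type replicate 2 also called the pnt region. The secreted inhibitor gene aos held a region shared with CG33158. The kinase gene rl was different, with a region at 2R 1097718 to 1098205 called in all 4 libraries at folds of 7.36, 7.79, 5.12 and 6.71.

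In the Wingless and Wnt list, 8 of 25 genes (32%) had a tag-dependent region, against 5.9% of all protein-coding genes. The untagged libraries had a peak in 12% and 24% of the list, against 4.23% and 15.8% of all protein-coding genes. The receptor gene fz2 held 5 tag-dependent regions, the highest at 3L 19193731 to 19194999 with folds of 4.86 and 4.29. The co-receptor gene arr had folds of 4.03 and 5.07 at 2R 13476004 to 13477083, and the feedback inhibitor gene nkd 4.20 and 3.69 at 3L 19041111 to 19042835. Notum, which encodes a secreted inhibitor, had a region of folds 2.26 and 2.05, and the receptor gene fz and the destruction complex gene Apc held 1 each. The ligand gene wg had no region within its span. The effector gene pan and the kinase gene nmo each held 2 regions of all 4 libraries beside their tag-dependent ones.

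The Notch list had 5 of 24 genes (20.8%, against 5.9% of all protein-coding genes). Untagged replicate 1 had a peak in 4.17% of the list. In untagged replicate 2 the share was 29.2%, or 7 genes, against 15.8% of all protein-coding genes. The tag-dependent regions lay in the receptor N, the ligand gene Ser, the coactivator gene mam, the antagonist gene H and the ubiquitin ligase gene Su(dx). N held 4 tag-dependent regions from 4 and 4 tagged peaks and no untagged peak. Spans widened by 2 kb on each side raised the count of genes to 13, and it was 8 without untagged replicate 2. The metalloprotease gene kuz, which acts in receptor cleavage, held a control-only region at 2L 13553721 to 13554350 with folds of 1.69 and 1.65.

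The Hippo and Fat list had 6 of 19 genes (31.6%, against 5.9% of all protein-coding genes) and 14 regions (4.71 per 100 kb). The untagged libraries had a peak in 5.26% and 26.3% of the list, against 4.23% and 15.8% of all protein-coding genes. Tag-dependent regions lay in the cadherin genes ft and ds, in ex, in sd, the DNA-binding partner of Yorkie, in Tgi, and in Diap1, a target that blocks cell death. Folds in sd were 3.41 and 5.02, at X 15811814 to 15812435, and that inside ex at 2L 439079 to 440237 had 3.79 and 3.48. In the cell cycle and growth list 6 of 23 genes (26.1%) had a tag-dependent region, and 11 or 10 without tagged replicate 1 or 2. Among the 6 were stg, CycA, dap, a cyclin-dependent kinase inhibitor, and E2f1, which drives entry into S phase and held 3 regions with folds of 2.2 to 3.05. The transcription factor gene foxo, which acts in insulin signalling, held 2. InR, the insulin receptor gene, had instead a region called in all 4 libraries at 3R 21609615 to 21611582, with folds of 3.20 and 3.92 in the tagged and 5.26 and 5.84 in the untagged lists.

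Hedgehog and anterior-posterior fate genes had regions in 5 of 14 cases (35.7%, against 5.9% of all protein-coding genes). These were the receptor gene ptc, with folds of 3.03 and 3.89 at 2R 8655674 to 8656397, the co-receptor genes boi and ihog, the posterior selector en and tara. In each untagged library 1 gene of this list (7.14%) had a peak, against 4.23% and 15.8% of all protein-coding genes. That gene was tara, with 1 and 4 untagged peaks. Undamaged wild-type replicate 2 also called the ptc region. Wing selector genes had regions in 11 of 28 cases, and each untagged library had a peak in 3.57% of them. The members were vg, sd, Bx, caup, Antp, hth, tsh, ct, exd, zfh2 and bi. The vg region, in the gene that specifies wing fate, lay at 2R 12888965 to 12889608 with folds of 2.92 and 3.33, and that in Bx at X 18538315 to 18540526 with 2.93 and 3.43. Over the wider list of 83 homeobox genes, 11 (13.3%) had a tag-dependent region, against 39.3% of the wing selectors, some of which are in both lists.

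The JNK list, the stress kinase cascade of wound closure, had 6 of 21 genes (28.6%, against 5.9% of all protein-coding genes). The untagged libraries had a peak in 4.76% and 14.3% of the list. The 6 genes included 4 successive kinases, msn, slpr, hep and bsk, each with a region near a gene end. Folds were 2.08 and 3.90 in msn, 2.13 and 1.90 in slpr, 3.41 and 2.25 in hep, and 2.02 and 2.11 in bsk. The nearest untagged peak lay only 206 bp from the msn region and 222 bp from the bsk region. For slpr and hep it lay 18160 bp and 121430 bp away. The phosphatase gene puc, the feedback inhibitor of the cascade, held 2, and the metalloprotease gene Mmp2 held 1. In the JAK/STAT list the receptor gene dome, the transcription factor gene Stat92E and the phosphatase gene Ptp61F had regions, 3 of 12 in all (25%). The ligand genes upd1, upd2 and upd3 and the JNK ligand gene egr had none within their spans. In untagged replicate 2, 41.7% of the JAK/STAT genes had a peak, as many as in tagged replicate 2.

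Genes of hormone timing and chromatin were also counted. Of 24 ecdysone and timing genes, 9 (37.5%) had regions, against 5.9% of all protein-coding genes. Each untagged library had a peak in 16.7% of this list. Eip78C led at 3L 21252699 to 21254435 with folds of 4.06 and 4.58. Next was Kr-h1 at 2L 6087693 to 6088520 with 4.25 and 3.99. Both encode nuclear factors of the hormone response. The receptor gene EcR held 3, the highest with folds of 3.14 and 4.45. Of 22 Polycomb and Trithorax genes, 7 had tag-dependent regions, namely ph-p, ph-d, Psc, Su(z)2, Pc, trx and jing, and the untagged libraries had peaks in 18.2% and 36.4% of this list. Within ph-p, 2 regions were tag-dependent and 2 control-only, the latter at X 2132174 to 2132512 and 2132769 to 2133465 with folds of 2.31 to 2.57. Among 20 pioneer and architectural factor genes 6 had regions, and untagged replicate 2 had a peak in 55% of this list, between the tagged libraries' 50% and 60%. The zld gene itself held 1, with folds of 4.88 and 5.35, and grh, another pioneer factor, held 3 with folds up to 4.19. The SWI/SNF list had 3 of 10 (30%), in osa, mor and e(y)3, against 5.9% of all protein-coding genes. Untagged replicate 2 had a peak in 30% of this list, as did tagged replicate 2, and tagged replicate 1 in 20%. The osa span held 2 peaks of untagged replicate 2. The mor span held a peak of tagged replicate 2 only. Its region was shared with Hel89B and was also called in undamaged wild-type replicate 2.

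Proneural and bristle genes had regions in 5 of 18 cases (27.8%, against 5.9% of all protein-coding genes). They were led by hry (hairy), a repressor of bristle formation, at 3L 8675282 to 8675910 with folds of 4.16 and 5.09. Undamaged wild-type replicate 2 also called the hry region. Of 22 epithelial polarity and adhesion genes, 7 (31.8%) had regions. None of these 7 held a peak of an untagged damaged library, and 635 of all 822 protein-coding genes with a tag-dependent region held none. The 7 were shg, the integrin genes mew and mys, the apical determinants sdt and crb, and the septate junction genes Lac and cora. The shg region at 2R 21056319 to 21057520 had folds of 3.95 and 5.58. Undamaged wild-type replicate 2 also called this region and that in crb. Among genes of other cells that discs can carry, 0 of 9 hemocyte genes, 1 of 8 adult muscle precursor genes (12.5%) and 1 of 7 tracheal genes (14.3%) had a tag-dependent region, against 5.9% of all protein-coding genes. The muscle precursor gene was kirre, with 5 such regions and 4 of all 4 libraries, and the tracheal gene was knrl. Of the kirre regions of all 4 libraries, those at X 2789785 to 2793126 and 2796028 to 2796695 also overlapped the gene w. Its tag-dependent region at X 2963751 to 2965469 also overlapped rst. The counts of 1 became 2 in the muscle list without tagged replicate 1 or without untagged replicate 2, and 3 in the tracheal list without tagged replicate 2. A peak is not expression, so these counts do not measure how many such cells were present.

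Several structural and noncoding families had no member in the tag-dependent class. Of 70 Cpr cuticle protein genes, 295 tRNA genes, 289 snRNA and snoRNA genes, 87 cytochrome P450 genes, 35 glutathione S-transferase genes and 123 histone genes, none had a tag-dependent region. Over all genes the share was 5.45%. Many of these families have short genes, and with spans widened by 2 kb 20 tRNA genes and 30 snRNA and snoRNA genes had one. Of 93 cytosolic ribosomal protein genes 1 did, RpS28a, whose region it shares with Mgat2. Peaks in ribosomal protein genes split by library and not by genotype, at 4.30% and 18.3% of the genes in the tagged and 1.08% and 20.4% in the untagged libraries. Without tagged replicate 1, 10 of these genes would count as tag-dependent. Small counts put other families above the share of all genes, with 4 of 48 proteasome subunit genes (8.33%), 2 of 26 heat shock genes (7.69%, Hsc70-3 and the noncoding Hsromega) and 2 of 17 actin and tubulin genes (11.8%). Each of the proteasome regions also overlapped another protein-coding gene, and the spans of Prosbeta2 and Rpt3 held no peak of tagged replicate 2. Hsromega also held 2 regions of all 4 libraries and 6 and 4 untagged peaks. An untagged peak lay 259 bp from its tag-dependent region. MicroRNA genes had 2 of 260 and chemoreceptor genes 2 of 186. Without tagged replicate 1 the counts were 2 proteasome, 5 heat shock and 5 microRNA genes, and the heat shock count was 5 without tagged replicate 2 and 4 without untagged replicate 2.

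Control-only regions had median folds of 1.8 and 1.85, close to the medians of 1.82 and 1.85 over all peaks of the untagged lists, and 147 of the 297 (49.5%) overlapped a gene. Of the 10 that ranked highest, 4 overlapped a protein-coding gene and none lay near a gene end. The first was at 2R 11416279 to 11416956 in Drip, an aquaporin gene, with folds of 5.54 and 4.91. The next, at 2R 3232905 to 3234789 and 3L 15423952 to 15425184, lay 41894 bp and 15685 bp from the nearest protein-coding gene, with folds of 5.2 and 3.72 and of 4.32 and 4.23. The remaining 7 had folds of at most 3.15, and those in genes were in CG11030, in heph with CG2003, and in Cip4. Of the 10, 6 were called in both wild-type undamaged libraries. Outside ph-p, kuz, NK7.1, 3 histone genes and the neighbours Cyp28d1 and Cyp28d2, no listed gene held a control-only region.

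Among the 888 regions called in all 4 libraries were arrays of multicopy genes. Histone genes, repeated in tandem on 2L, had such a region in 75 of 123 cases, from 45 regions between 2L 21405686 and 21543259 with folds of 1.2 to 5.96. Of 98 ribosomal RNA genes on the arms, 58 (59.2%) had one, 56 of them between 2R 19729749 and 19766218. Reads from near-identical copies cannot be placed in 1 gene, so these counts describe the arrays. The highest folds of the class, 24.6 and 29.1 tagged and 23.7 and 25.3 untagged, were at 3R 3169840 to 3170369 in Pzl, and those at 2R 1825704 to 1826680 were 23.4, 26.8, 22.5 and 24.4. Of the 10 highest, 6 were on X and 6 overlapped no protein-coding gene. The genes of developmental lists that held one were rl, nmo, pan, InR, phol, mod(mdg4), scrib, baz and kirre. Outside the 6 arms the class held 710 of 1120 regions, a larger share (63.4%) than on the arms (12.5%). Tag-dependent regions there numbered 20 and control-only regions 57.

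The 4 undamaged libraries took no part in defining the classes and give a measure of each class in other discs. Tag-dependent regions were called at 16.4% and 8.76% in the undamaged Zelda-GFP libraries and at 2.01% and 8.68% in the undamaged wild-type libraries. Over all 7085 regions the shares were 29.5% and 19.5% in Zelda-GFP and 19.2% and 23.9% in wild type, so the tag-dependent class was below the background in each of the 4. Replicate 2 of each genotype called nearly as many, 109 of the 1244 regions in Zelda-GFP and 108 in wild type. The means of 12.6% and 5.35% differed by 7.24 percentage points (exact two-sided permutation p = 0.333, the smallest possible), and this fell to 3.42 points when replicate 1 of the undamaged Zelda-GFP discs was left out, and to 3.9 when that of the wild type was. No undamaged library had a peak in 965 of the 1244 regions (77.6%), against 61.2% of all regions. That share was not particular to the class. It was 74.4% and 78.3% for regions called in tagged damaged replicate 1 or 2 alone. For regions called in untagged damaged replicate 1 or 2 alone it was 63.7% and 84.3%. In both undamaged Zelda-GFP libraries and neither wild-type one, 69 tag-dependent regions were called, and 2 in the reverse pattern.

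The other classes behaved differently in those libraries. Control-only regions were called at 41.8% and 13.5% in the undamaged Zelda-GFP and at 46.1% and 48.1% in the undamaged wild-type libraries, with the wild type higher in both. The difference of -19.53 points (exact two-sided permutation p = 0.333) became -5.39 when only replicate 1 of the Zelda-GFP discs was kept and -33.67 when only replicate 2 was. It was -6.69 with summit windows of 100 bp, and -5.08 or -8.85 where the class was defined without wild-type damaged replicate 1 or 2. Regions of all 4 damaged libraries were called at 92.1% and 88.0% in the Zelda-GFP and at 84.5% and 78.5% in the wild-type undamaged libraries. These too did not overlap (difference 8.56 points, exact two-sided permutation p = 0.333), so the Zelda-GFP libraries were higher for this class as well. With summit windows the difference was 17.4 points. Only 25 of the 888 were missing from every undamaged list. The undamaged lists held 2908 and 1698 peaks in Zelda-GFP and 1744 and 3355 in wild type, and the part of list length in the differences was not tested.

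**Figure D5:**
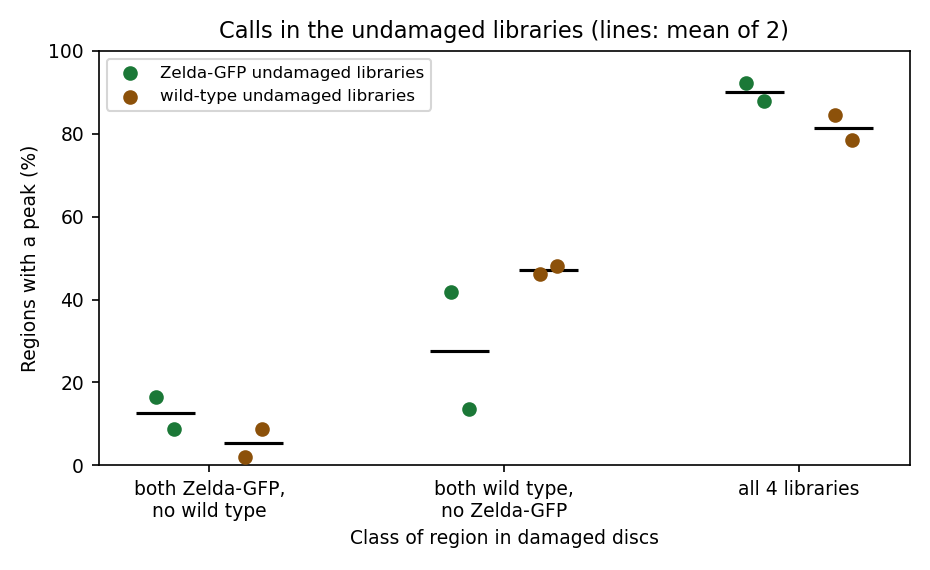
Share of the regions of each damaged class (%) that held a peak in each of the 4 undamaged libraries (points; lines are means of 2). Regions of all 4 damaged libraries lie between 78.5% and 92.1%, control-only regions between 13.5% and 48.1%, and tag-dependent regions between 2.01% and 16.4%.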

How the data were processed

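The authors deposited 1 peak list per library, from CUT&RUN on wing discs. Per the submitters' processing notes, the build was dm6 and the tools named were bcl2fastq 2.20, Bowtie2, SAMtools, Picard, deepTools and MACS2, without roles. Peak names in the deposited lists show that duplicates were marked; whether a control library entered the calling is not given in the sources used here. Per peak, the authors deposited a fold enrichment (linear ratio), the −log10 p-value and q-value, a score (10 times the −log10 q-value) and the summit. Folds were used to describe, rank or filter peaks, within lists except for a common minimum of 3.

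Peaks on 6 arms were merged if they shared at least 1 bp. A gene held a region that overlapped its span by at least 1 bp in the RefSeq Release 6 gene table, which has no strand or exons. Genes with overlapping spans share regions. A pileup and an expected coverage were recovered for each peak from its fold and p-value under a Poisson tail. Pileups were whole (within 0.05) for 99.89% to 100.0% of the peaks of a list. The lowest expected coverage of a list is its background coverage. The number of reads is unknown, so no counting intervals are given. Tests were exact two-sided permutation tests over libraries, where 2 against 2 cannot go below 0.333 so none of the 6 tests could pass 0.05 and p-values were not adjusted. Region and gene counts are descriptions without a test. Merging and classing of regions were checked on simulated lists with known classes. Python 3.11.15, numpy 2.4.6, pandas 2.3.3 and scipy 1.17.1 were used.

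Of the gene list entries, 5 were not matched and are not analysed here. The lists comprise 20 written by hand and 12 families defined by symbol. Named are the first 20 tag-dependent, 10 control-only and 10 regions of all 4 libraries by mean within-list percentile of fold, the 10 genes with the most tag-dependent regions, and up to 4 leading members per list. Members, lists and rules were chosen with earlier results of these data known. The gene kirre, tied for the last place among the genes with the most regions, and listed genes named beyond that rule were chosen after their values were seen.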

Additional observations from a re-analysis of the deposited data

How the results depend on the processing

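Replicate numbers do not pair the libraries: over 7085 regions, the deviations of same-numbered libraries had a correlation of 0.0151. With a replicate block the differences stayed at 772 peaks, 5.01 points near gene ends, and 7.24, -19.53 and 8.56 points in undamaged libraries, with exact p-values of 0.5 to 1.0, 0.5 being the smallest possible.

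A fold of at least 3 gave 247 tag-dependent, 15 control-only and 95 all-library regions, and kept 213 of the 1244 tag-dependent regions (17.1%). Summit windows of 100 bp gave 373 of all 4 libraries, equal lengths 548, and all sequences 1598. The windows kept 788 of the 1244 tag-dependent regions (63.3%) and equal lengths 798 (64.1%). Genes with a tag-dependent region numbered 1375 with spans widened by 2 kb and 539 with summit windows. Genes with a control-only region numbered 248 with widened spans and 89 near gene ends; genes with a region of all 4 libraries numbered 193 near gene ends and 118 with summit windows.

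Leaving out 1 library gave 1347 to 2250 tag-dependent, 394 to 1928 control-only and 977 to 1141 all-library regions, and 851 to 1337, 172 to 1580 and 307 to 533 genes. Requiring fewer libraries raises such counts by construction. It gave peak differences of 60 to 1484, near-end differences of -12.46 to 22.48 points, and undamaged differences of 3.42 to 11.05, -33.67 to -5.39 and 5.58 to 11.55 points. Of 391 gene list counts under alternatives that were not 0 in both settings, 203 stayed within 1.5 times. The motif comparison was not run, since no sequence was used here. The cause of these shifts was not tested. Peak lists cannot show signal below the calling threshold, so no call is not absence.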
